A study of Mus musculus with 28 samples.

Results

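Mib1, Abhd3, Snrpd1, Esco1, Greb1l and Rock1 are the 6 protein-coding genes that lie at lower coordinates than Gata6 on mouse chromosome 18 and within 1 Mb of a viewpoint at the Gata6 promoter. They were chosen by position, as 6 of the 10 protein-coding genes in that range. Fragments with reads over them numbered 628 of 3167 in that range, over all 5 libraries. Their contacts with the promoter were read by 4C-seq: chromatin is cut and religated, and each piece joined to 1 chosen fragment, the viewpoint, is amplified and sequenced. The viewpoint fragment was chromosome 18 from 11053305 to 11053963 (mm10), 0.795 kb inside the annotated start of Gata6, which encodes a transcription factor of endoderm and heart.

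All cells derived from E14Tg2a, a line of mouse embryonic stem cells (ESC). For 4 libraries they were turned over 5 days into anterior neural progenitors (AntNPC) in N2B27 medium, with bFGF at first and with the WNT inhibitor Xav939 later. Of these libraries 1 was wild type (WT), and the others carried part of PE Sox1, a poised enhancer of Sox1, knocked in within the Gata6 domain: its transcription factor binding sites (TFBS), its CpG island (CGI), or both (TFBS+CGI). The last library, called ESC CGI here, came from undifferentiated cells at day 0 with the CGI insert. Its cell type is labelled 2i+LIF ESC, while the growth protocol describes serum with LIF. Its label names the insertion site as viewpoint, but the Gata6 promoter fragment took 83.1% of its reads, as the viewpoint fragment of the other libraries does. It was therefore read as a promoter library, and each comparison of cell state rests on it. Whether the insert label of this library is right was not tested. The series also lists a day 0 library labelled with the promoter as viewpoint and the CGI insert, which was not used here. The labels and protocols used here do not state where in the domain the insert sits or how many clones were used. 4C-seq reads genomic DNA, so the labelled cell types could not be checked against marker transcripts.

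The libraries used here included 1 per condition. No spread between replicates could therefore be measured, no test between conditions was possible, and each difference below is one between libraries. The libraries held 1023252 to 7429563 reads, and the viewpoint fragment itself took 78.1% to 91.0% of them. The measure is the share of local reads, those within 1 Mb of the viewpoint with the nearest 10 kb on each side left out. Local reads numbered 61773 to 193257 and lay on 857 to 2233 fragments. Each gene was measured over its annotated span with 5 kb added on each side, together 616.5 kb or 62.3% of the left side. Intervals are 95% binomial intervals. They cover counting error only, and since copies made by PCR count as reads, they are too narrow for shares of reads.

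A promoter touches neighbouring chromatin more often the nearer it lies, and most contacts stay within a topologically associating domain, a stretch of chromosome that folds mainly on itself. A 4C-seq profile therefore falls steeply with distance, and genes beyond the domain are reached at a low and patchy level. The genes left of Gata6 have unrelated functions. Mib1 encodes a ubiquitin ligase that drives endocytosis of Notch ligands in the cell that sends the signal. Abhd3 encodes a phospholipid hydrolase, Snrpd1 a core Sm protein of the spliceosome, and Esco1 an acetyltransferase of the cohesin ring. Greb1l encodes a relative of the oestrogen-regulated protein Greb1 with a role in kidney and inner ear development, and Rock1 a kinase of actomyosin contraction. Genes are described from the nearest to the farthest.

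The 6 genes together took up 10.7% of the WT library's local reads (10.5% to 10.8%), 10.2% in TFBS, 7.41% in CGI, 9.48% in TFBS+CGI and 15.4% in ESC CGI (15.1% to 15.6%). ESC CGI was highest and AntNPC CGI lowest, and the other AntNPC libraries lay close to each other. The left side as a whole held 49.2%, 40.4%, 40.2%, 48.2% and 50.2% of local reads in the same order. Most of this lay in the 220.1 kb between Mib1 and the viewpoint, which hold no protein-coding gene: 38.5% in WT, 28.6% in TFBS, 31.8% in CGI, 35.9% in TFBS+CGI and 31.5% in ESC CGI. Per 10 kb, that stretch held 1.75% of local reads in WT against 0.299% over Mib1 and 0.0768% over Rock1.

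**Figure D1:**
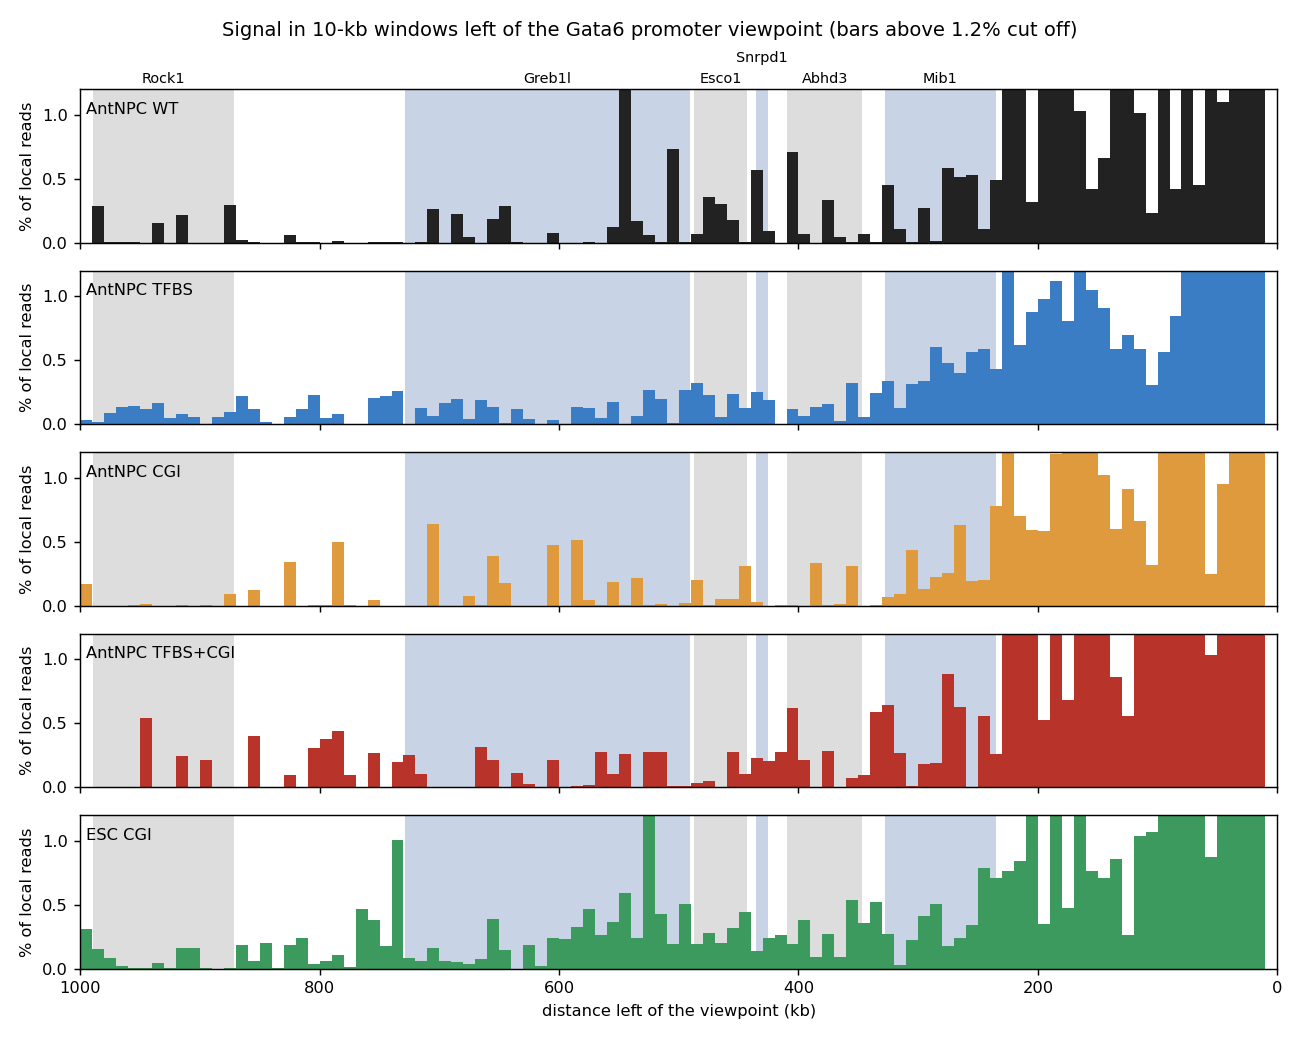
Share of local reads (%, linear axis cut at 1.2%) in 10-kb windows against distance left of the viewpoint (kb), 1 panel per library, with the 6 gene spans shaded and named above. Signal is dense up to the near end of Mib1 in all 5 panels and breaks into separate bars farther out, except in AntNPC TFBS and ESC CGI, where the bars are more continuous.

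Mib1 lies nearest, from 10725625 to 10818578 (mm10), 235 to 328 kb from the viewpoint. Its share of local reads was 3.08% for WT (interval 2.98% to 3.18%), 4.22% for TFBS (interval 4.13% to 4.31%), 3.02% for CGI (interval 2.89% to 3.15%), 3.63% for TFBS+CGI (interval 3.54% to 3.72%) and 3.87% for ESC CGI (interval 3.72% to 4.02%). The highest of the 4 AntNPC values was 1.40 times the lowest, the narrowest range of the 6 genes. Per 10 kb of span, Mib1 was first of the 6 in all libraries except WT, where it stood at 0.299% behind Snrpd1 at 0.320%. The Snrpd1 value in WT rested largely on 1 fragment, described below.

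Reads of Mib1 were spread over most of the gene. Of its 10 windows of 10 kb, 8 held at least 0.05% of local reads in WT, 10 in TFBS, 10 in CGI, 8 in TFBS+CGI and 9 in ESC CGI. The tallest fragment held 10.6% of its reads in WT, 5.65% in TFBS, 17.8% in CGI, 15.9% in TFBS+CGI and 8.42% in ESC CGI, so no single fragment carried the gene. The tallest fragments were nonetheless different ones in each library. That of WT, from 10801856 to 10802190, had 363 reads in WT, 8 in TFBS and 0 elsewhere. That of TFBS+CGI, from 10778177 to 10778274, had 901 reads there, 40 in ESC CGI, 6 in CGI and 0 in WT and TFBS.

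Within Mib1 lies the host transcript of the muscle microRNAs miR-1a-2 and miR-133a-1, Mir133a-1hg, from 10778306 to 10791393. It makes up 12.7% of the measured span of Mib1. It held 29.1% of Mib1 reads in WT (27.6% to 30.7%), 14.1% in TFBS, 29.1% in CGI, 25.7% in TFBS+CGI and 7.96% in ESC CGI (6.94% to 9.11%). This locus was picked from the annotation after the fragments were seen. Its reads lay on few fragments with at least 10 reads, 4 in WT, 11 in TFBS, 4 in CGI, 5 in TFBS+CGI and 3 in ESC CGI, so its share of Mib1 moves with 1 or a few fragments. The 34.3-kb part of Mib1 nearest to the viewpoint held 53.0% of its reads in WT, 42.8% in TFBS, 39.0% in CGI, 24.4% in TFBS+CGI and 52.1% in ESC CGI.

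Abhd3, from 10644411 to 10706783, had a share of 1.23% in the WT library (1.16% to 1.29%), 0.883% with TFBS, 0.682% with CGI, 1.47% with TFBS+CGI and 2.13% in ESC CGI (2.02% to 2.25%). ESC CGI was above the 4 AntNPC libraries, among which the highest was 2.16 times the lowest. In WT 1 fragment, from 10646077 to 10646221, carried 57.8% of the gene's reads, with 786 reads; TFBS had 132 there and the remaining libraries 0. In CGI a fragment from 10673089 to 10673828 carried 49.5%, with 228 reads, and it had 0 in WT. In ESC CGI the reads were spread over 26 fragments with at least 10 reads. All 7 windows of the gene held at least 0.05% of local reads there, against 6 in TFBS, 5 in TFBS+CGI, 4 in WT and 2 in AntNPC CGI. ESC CGI and TFBS also had more local fragments with at least 10 reads, 961 and 1680, than WT (390), CGI (488) and TFBS+CGI (535).

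Snrpd1, from 10617796 to 10628230, is the shortest of the genes and the least steady. It had a share of 0.655% in WT, 0.446% with TFBS, 0.0281% with CGI (0.0180% to 0.0439%), 0.429% with TFBS+CGI and 0.348% in ESC CGI. These are 726, 861, 19, 670 and 215 reads, so CGI stood far below the rest. In WT 1 fragment, from 10619119 to 10619404, held 621 of the reads. The same fragment had 2 reads in TFBS, 1 in ESC CGI and 0 in CGI and TFBS+CGI. In TFBS+CGI, 2 fragments held nearly all: that from 10618254 to 10618453 had 351 reads and that from 10629900 to 10630028 had 314. Fragments of the gene with at least 10 reads numbered 2 in WT, 13 in TFBS, 1 in CGI, 2 in TFBS+CGI and 6 in ESC CGI. The gap between CGI and WT thus amounts to 1 fragment against 2.

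Esco1, from 10566507 to 10610863, had a share of 0.907% in WT, 1.12% with TFBS, 0.645% with CGI, 0.474% with TFBS+CGI and 1.70% in ESC CGI (1.61% to 1.81%). ESC CGI was again highest, and TFBS+CGI lowest. In TFBS+CGI the fragment from 10594760 to 10594857 carried 58.1% of the reads, with 429, and it had 0 in WT and TFBS. The measured spans of neighbours overlap here. Esco1 shared 5 fragments with Greb1l and 3 with Snrpd1, so its values are not independent of theirs. The 5 shared with Greb1l held 426 reads in TFBS and 141 in ESC CGI, but 6 in WT.

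Greb1l, the longest gene, from 10324933 to 10562945, had a share of 3.82% in the WT library (3.71% to 3.93%), 2.67% with TFBS (2.60% to 2.74%), 2.77% with CGI (2.65% to 2.89%), 2.47% with TFBS+CGI (2.40% to 2.55%) and 6.70% in ESC CGI (6.51% to 6.90%). The AntNPC libraries lay within 1.54 times of each other, and ESC CGI lay above all of them. In ESC CGI 21 of the 24 windows of Greb1l held at least 0.05% of local reads, against 10 in WT and 15, 8 and 11 with TFBS, CGI and TFBS+CGI. The tallest fragment of ESC CGI held 5.32% of the gene's reads, whereas in WT the tallest, from 10505480 to 10506259, held 25.6% with 1084 reads and had 5 in TFBS and 0 elsewhere. The 82.7-kb part nearest to the viewpoint held 58.7% of Greb1l reads in ESC CGI, 71.4% in WT and 16.2% in AntNPC CGI.

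Rock1, the farthest, from 10064401 to 10182251, had a share of 0.982% in the WT library (0.926% to 1.04%), 1.11% with TFBS, 0.287% with CGI (0.250% to 0.330%), 1.01% with TFBS+CGI and 0.965% in ESC CGI (0.891% to 1.04%). CGI stood apart, and the other libraries, ESC CGI included, lay close together. In CGI the 194 reads lay on 10 fragments, of which 1, from 10063241 to 10063559, had 113. Per 10 kb of span Rock1 was last of the 6 in each library except CGI, where Snrpd1 was lower at 0.0138% against 0.0225%.

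**Figure D2:**
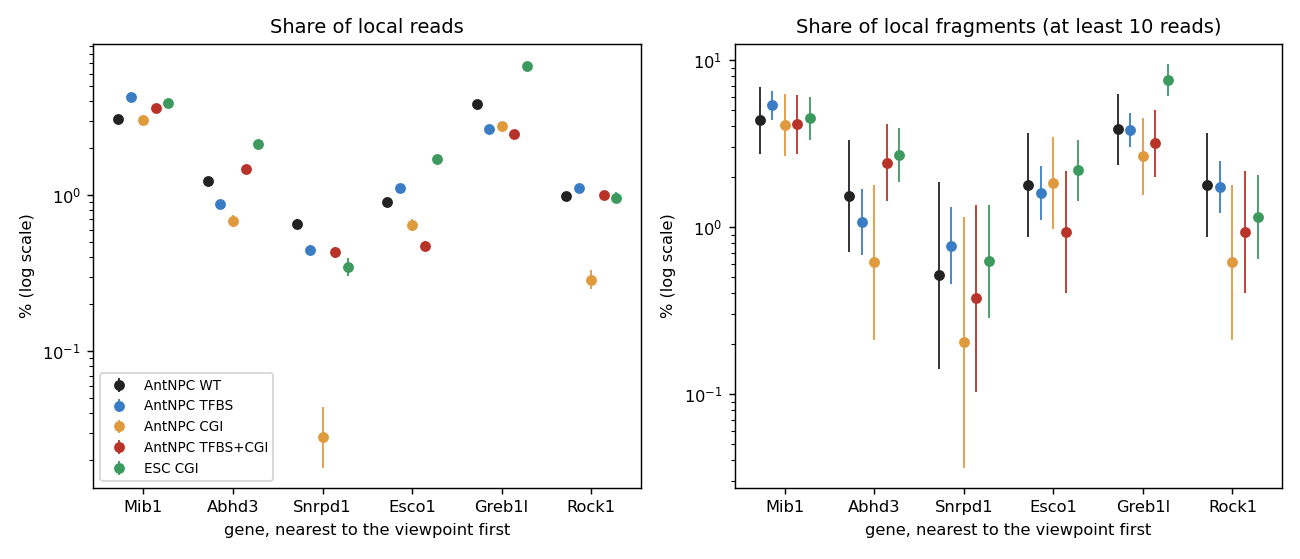
Share of local reads (left, %, log axis) and share of local fragments with at least 10 reads (right, %, log axis) for each gene, nearest first, with 1 point per library and 95% Wilson intervals for counting error. ESC CGI is highest at Abhd3, Esco1 and Greb1l in both panels, and the low Snrpd1 point of AntNPC CGI at 0.0281% of reads has a wide interval once fragments are counted.

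Fragments with at least 10 reads were then counted once each, because 1 ligation can be copied into many reads. The cut of 10 reads was the same in all libraries, though they differ in depth. The share of local fragments with at least 10 reads that lay over the 6 genes was 13.8% in WT (54 of 390, 10.8% to 17.6%), 14.2% in TFBS (238 of 1680, 12.6% to 15.9%), 9.84% in CGI (48 of 488, 7.50% to 12.8%), 12.0% in TFBS+CGI (64 of 535, 9.48% to 15.0%) and 18.3% in ESC CGI (176 of 961, 16.0% to 20.9%). The intervals of the AntNPC libraries overlap each other. That of ESC CGI lies above those of TFBS, CGI and TFBS+CGI and overlaps that of WT.

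Few of these fragments recurred between libraries. Of 508 fragments over the 6 genes with at least 10 reads in some library, 446 (87.8%) reached 10 reads in 1 library, 52 in 2, 10 in 3 and none in more. Of all 2696 such local fragments 64.8% were of 1 library and 15 were common to all 5. The share of 1 library was 82.3% of 158 at Mib1, 83.9% of 56 at Abhd3, 90.9% of 22 at Snrpd1, 82.1% of 56 at Esco1, 92.3% of 169 at Greb1l and 98.1% of 54 at Rock1. The overlap of WT and TFBS was 12 fragments, 22.2% of the 54 of WT and 5.04% of the 238 of TFBS; over all local fragments it was 198, 50.8% of 390 and 11.8% of 1680. That of AntNPC CGI and ESC CGI was 8 fragments, 16.7% of 48 and 4.55% of 176; over all local fragments it was 149, 30.5% of 488 and 15.5% of 961.

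**Figure D3:**
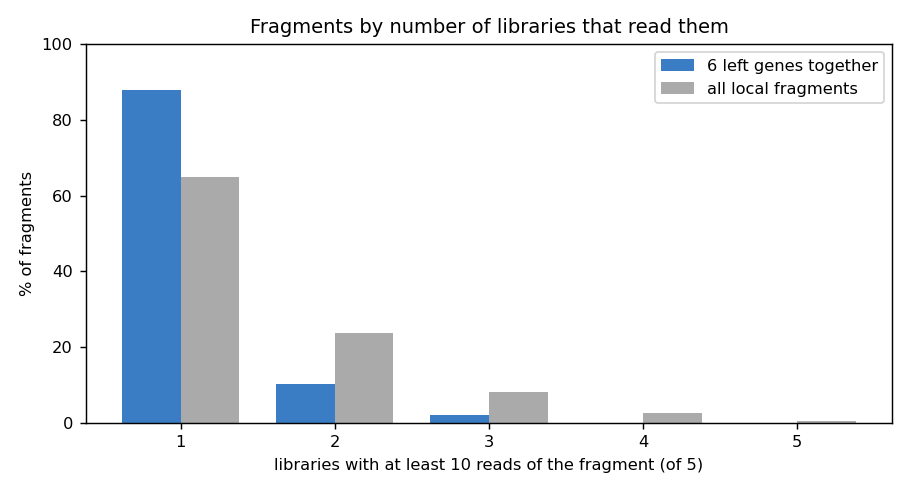
Share of fragments (%) by the number of libraries, out of 5, in which they reached 10 reads, for the 6 genes together (blue) and all local fragments (grey). Of the fragments over the 6 genes, 87.8% reached 10 reads in 1 library, against 64.8% of all local fragments.

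Low counts of a tall fragment did recur, in certain pairs of libraries. Of the 44 fragments over the 6 genes with at least 100 reads in TFBS+CGI, 29 were read in AntNPC CGI and 29 in ESC CGI at under 3% of that count, with medians over the fragments read of 0.669% and 0.722%. These are 65.9% each, against 60.3% and 47.1% of all 403 such local fragments of TFBS+CGI. Of the 74 such fragments of TFBS, 52 were read in WT at under 3%, with a median of 0.962%; this is 70.3%, against 64.0% of all 666 such local fragments. In AntNPC CGI this held for 2 of the 74, 2.70%, against 11.0% of the 666. The recurrence was thus found among all local fragments as well as over the 6 genes. The source of these low counts was not tested. Setting reads under 3% of a fragment's highest count to 0, an alternative chosen after seeing the data, left the log2 ratio of the 6 genes together, ESC CGI over AntNPC CGI, at 1.06 and took that of Snrpd1 in CGI over WT from -4.54 to -4.78.

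Over wider stretches the profiles were more alike. Across the 99 windows of 10 kb on the left side, Spearman's rho between pairs of libraries ran from 0.59 to 0.70 (median 0.67, 10 pairs), and across 19 windows of 50 kb from 0.55 to 0.82 (median 0.72). All these points share the fall of signal with distance, and windows are not replicates. Across the 508 fragments rho ran from -0.51 to 0.45 (median -0.19). These fragments were kept for being tall in some library, which pushes rho below 0. The pairs above 0 were WT with TFBS (0.41), CGI with TFBS+CGI (0.45) and TFBS+CGI with ESC CGI (0.36). In each of these pairs low counts of tall fragments recurred, as given above. Whether those low counts raise rho was not tested.

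The comparisons with WT ask whether each insert went with more or fewer contacts of the promoter with the left genes in AntNPC. With TFBS, the shares of the 6 genes moved both ways and none by 2-fold, the fold taken here as a difference. The log2 ratio of TFBS over WT was 0.46 at Mib1 (0.40 to 0.51), 0.30 at Esco1, 0.18 at Rock1, -0.47 at Abhd3, -0.52 at Greb1l and -0.56 at Snrpd1. Their median was -0.15, against -0.42 over all 10 genes within 1 Mb, of which 0% were 2-fold higher and 10% 2-fold lower. The 6 genes together were at -0.07 (-0.10 to -0.04), which became 1.93 on the deposited scale of reads per total reads, on which all 6 were higher with TFBS, and 0.19 as a share of all chromosome 18 reads. Directions of single genes rested on few fragments: without the tallest fragment of each gene Snrpd1 turned to 1.87 and Abhd3 to 0.41, and with no flank Esco1 turned to -0.22 and Snrpd1 went to -1.19. Counted by fragments, each gene's interval included 0, and that of the sum was -0.40 to 0.49.

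With CGI, all 6 genes lay below WT as shares of local reads, though Mib1, Esco1 and Greb1l lay above it on the deposited scale, and Mib1 also as a share of chromosome 18 reads (0.09) and of left-side reads (0.26). Snrpd1 and Rock1, 2 of the 6, were lower by 2-fold or more on both scales. The log2 ratio of CGI over WT was -4.54 at Snrpd1 (-5.28 to -3.89), -1.77 at Rock1, -0.84 at Abhd3, -0.49 at Esco1, -0.46 at Greb1l and -0.03 at Mib1 (-0.11 to 0.05). The median was -0.67, against -0.48 over all 10 genes, of which 30% were 2-fold lower and 0% 2-fold higher; the other gene called lower was Cables1, on the right. With 10 kb of flank Snrpd1 went to -1.08, and with every fragment counted once, whatever its reads, Snrpd1 went to -0.14 and Rock1 to -0.79, both under 2-fold. With no flank Esco1 passed 2-fold at -1.13. Other settings also turned single genes above WT: Mib1 with 10 kb of flank (0.24), Abhd3 with every fragment counted once (0.11) and Esco1 by fragments with at least 10 reads (0.04). By fragments with at least 10 reads Snrpd1 was at -1.32 (-7.21 to 2.94) and Rock1 at -1.55 (-4.13 to 0.59), so neither interval excluded 0. The 6 genes together were at -0.52 by reads and at -0.49 by fragments (-1.09 to 0.09). On the deposited scale, which keeps the different share of reads taken by the viewpoint fragment, the sum was 0.21, so its direction depends on the scaling. The CGI library also had the fewest local reads of the AntNPC libraries and 857 local fragments against 1090 in WT.

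With TFBS+CGI, 3 genes lay above and 3 below WT, on the deposited scale too, and none by 2-fold. The log2 ratio was 0.27 at Abhd3 (0.17 to 0.36), 0.24 at Mib1 (0.18 to 0.30), 0.04 at Rock1, -0.61 at Snrpd1, -0.63 at Greb1l and -0.94 at Esco1 (-1.08 to -0.80). The median was -0.29, against -0.44 over all 10 genes, of which 0% were 2-fold higher and 10% 2-fold lower. Without the tallest fragment of each gene Abhd3 was at 1.20, Snrpd1 turned to 1.09 and Esco1 was at -1.63, all past 2-fold, and with every fragment counted once Rock1 turned to -1.23 and Greb1l to 0.55. The 6 together were at -0.17 (-0.20 to -0.13), and at 0.21 on the deposited scale. Each gene's fragment interval included 0. The values for the 3 inserts share the same WT library. As a share of local reads Greb1l lay below WT with each insert (above it on the deposited scale with TFBS and with CGI), and its tallest WT fragment had at most 5 reads elsewhere.

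**Figure D4:**
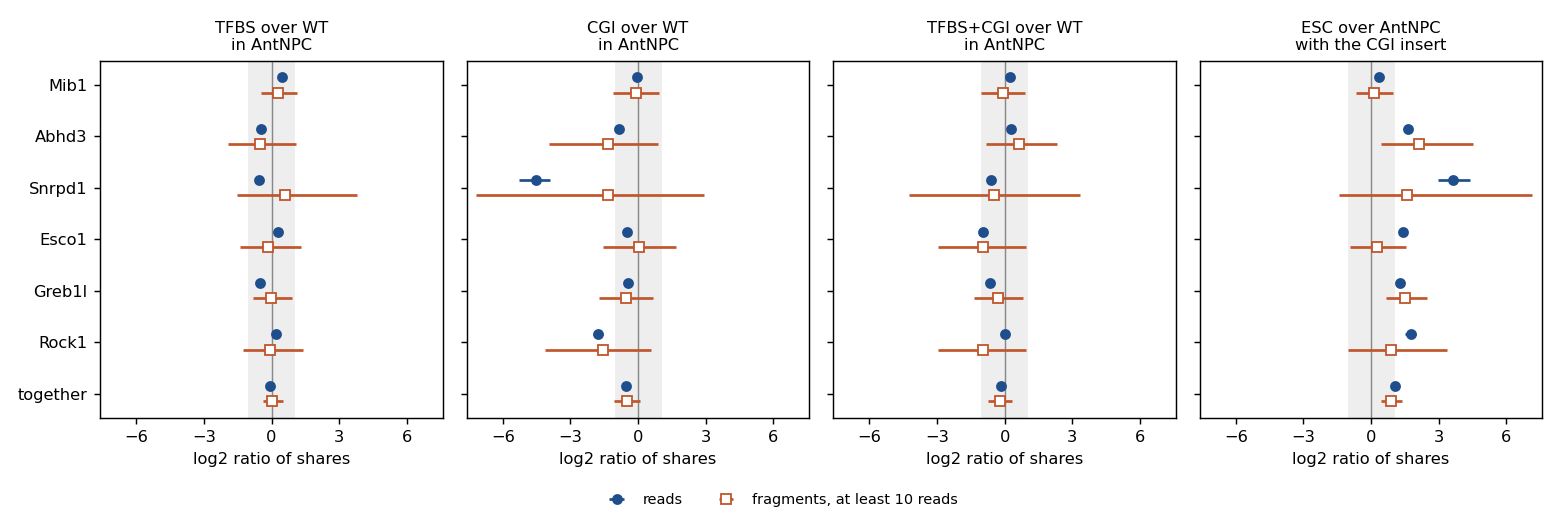
Log2 ratio of shares for each gene and for the 6 together, by local reads (filled circles) and by fragments with at least 10 reads counted once (open squares), with 95% intervals for counting error; the grey band marks less than 2-fold. In the 3 insert panels each fragment interval crosses 0, and in the panel of cell state those of Abhd3, Greb1l and the sum lie above 0.

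The comparison of ESC with AntNPC, both with the CGI insert, asks whether the promoter's contacts with these genes differ with cell state. All 6 genes had a higher share in ESC CGI, 5 of them by 2-fold or more. When 10 kb of flank was added, Mib1 turned to -0.08 and Snrpd1 went to 0.996, just under 2-fold. With every fragment counted once, Abhd3 was at 0.91, Snrpd1 at 0.68, Esco1 at 0.52 and Rock1 at 0.12, all under 2-fold, and Greb1l at 1.64. The log2 ratio of ESC over AntNPC was 3.63 at Snrpd1 (2.95 to 4.39), 1.75 at Rock1 (1.51 to 1.99), 1.64 at Abhd3 (1.49 to 1.80), 1.40 at Esco1 (1.24 to 1.57), 1.28 at Greb1l (1.20 to 1.36) and 0.36 at Mib1 (0.27 to 0.44). The median was 1.52, against 0.82 over all 10 genes, of which 50% were 2-fold higher and 0% 2-fold lower. All 5 genes called higher were on the left. The 4 genes on the right, Gata6, Rbbp8, Cables1 and Tmem241, had a median of 0.25 and ran from -0.63 to 0.37. The difference between the sides was not tested, since 1 library of each state was used.

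By fragments the ratio stayed above 0 with its interval at Greb1l, with 73 fragments in ESC CGI and 13 in AntNPC CGI (log2 1.51, 0.65 to 2.49), and at Abhd3, with 26 and 3 (2.14, 0.43 to 4.51). It included 0 at Mib1 (-0.67 to 0.97), Snrpd1, Esco1 and Rock1. The ESC CGI counts took in neighbouring fragments of 20 bp as separate ones. At Abhd3 these had 22, 34 and 27 reads, in the flank from 10639593 to 10639660. At Greb1l they had 12, 14, 22 and 19 reads, from 10545850 to 10546207. A run of neighbouring 38-bp fragments at Esco1, from 10569760 to 10569923, had 17, 23, 19 and 32 reads in TFBS and 12, 14, 11 and 7 in ESC CGI. Whether the fragments of these runs are separate ligations was not tested. The 6 genes together were at 1.05 by reads (1.00 to 1.10), at 2.23 on the deposited scale, and at 0.90 by fragments (0.43 to 1.39). Since AntNPC CGI was the lowest of the AntNPC libraries, ESC CGI was also set against the others. For the 6 together the log2 ratio of ESC CGI was then 0.53 against WT, 0.60 against TFBS and 0.70 against TFBS+CGI, all under 2-fold. For Greb1l it was 0.81, 1.33 and 1.44. By fragments Greb1l was at 0.98 (0.17 to 1.89), 1.00 (0.49 to 1.50) and 1.26 (0.48 to 2.11). Abhd3 was at 0.80, 1.27 and 0.53 by reads. By fragments Abhd3 was at 0.81 (-0.50 to 2.39), 1.34 (0.41 to 2.29) and 0.16 (-0.86 to 1.24). Its fragment interval thus included 0 against WT and against TFBS+CGI. Snrpd1 and Rock1 turned: ESC CGI lay below WT at -0.91 and -0.03, below TFBS at -0.36 and -0.21, and below TFBS+CGI at -0.30 and -0.06. Mib1 also turned against TFBS, at -0.13. These ratios share the ESC library, and the latter 3 also differ in insert. The labelled viewpoint and the library cannot be told apart from cell state.

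In windows of 10 kb, 60 of which lie over the genes, most windows differed 2-fold one way or the other in each comparison. For TFBS over WT, 45% of 189 windows with at least 10 reads were higher and 19.6% lower, and over the genes 26 of 56 were higher and 13 lower. For CGI over WT, 33.9% of 165 were higher and 33.3% lower, and over the genes 13 of 43 were higher and 22 lower. For TFBS+CGI over WT, 37.9% of 174 were higher and 32.2% lower, and over the genes 22 of 51 and 16. For ESC over AntNPC with the CGI insert, 42.9% of 191 were higher and 19.9% lower, and over the genes 35 of 55 were higher and 7 lower. With TFBS and with TFBS+CGI, the members' share of higher windows (46.4% and 43.1%) lay near the background. With CGI the share of lower windows over the genes was 51.2%, and 17.2% in the other left windows. For cell state the share of higher windows was 63.6%, and 39.5% in the other left windows. The other left windows are not matched to the genes in distance or density, since they take in the stretch between Mib1 and the viewpoint. That stretch held 1.44% of local reads per 10 kb in AntNPC CGI, against 0.293% over Mib1. Whether distance or density accounts for these gaps was not tested. Of the 10 windows of Mib1, 7 stayed within 2-fold for TFBS over WT, 6 for TFBS+CGI, 4 for CGI and 4 for cell state. At Greb1l 15 of 23 windows were higher and 2 lower in ESC CGI than in AntNPC CGI.

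Spans at equal distance to the right serve as a reference for the fall with distance, but they are matched in distance only. The span that mirrors Greb1l takes in Rbbp8, 580 to 690 kb from the viewpoint, and that of Rock1 parts of Cables1 and Tmem241. The labels used here do not state whether the insert lies on that side. The spans that mirror the 6 genes held 21.6% of local reads in WT, 24.3% in TFBS, 25.4% in CGI, 16.7% in TFBS+CGI and 15.9% in ESC CGI. In the AntNPC libraries the 6 genes together thus held less than their mirror image, by a log2 ratio of -1.02, -1.26, -1.78 and -0.82. Of single genes in AntNPC, Snrpd1 lay above its mirror in WT (1.78) and TFBS+CGI (0.71), Abhd3 in WT (0.23) and Rock1 in TFBS (0.09). Apart from Greb1l in TFBS+CGI, given below, the other single-gene values in AntNPC were below 0. In ESC CGI both sides were nearly level at -0.05, with 176 fragments over the genes and 187 over the mirror image. Mib1 lay below its mirror in all 5 libraries, by -1.44, -1.19, -1.88, -1.15 and -0.49. Greb1l was below in WT, TFBS and CGI at -0.54, -0.80 and -0.72, level in TFBS+CGI at 0.04, and above in ESC CGI at 0.95, with 73 fragments against 40. How many fragments could be read on each side was not counted.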

How the data were processed

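Per the file headers and the submitters' processing notes, the authors deposited RPM per restriction fragment, mapped with HISAT2 to mm10. Version and filters are not stated in the labels used here. Per the labels' protocols, chromatin was cut with NlaIII, religated, cut with DpnII and circularised. All RPM values of the 5 libraries were whole multiples of the smallest within 0.1 (100%), so reads were recovered by division. A count test on them was not run, since 1 library per condition was used. In every library the strongest fragment marked the viewpoint. Fragments were assigned by their midpoint, and gene spans are those of RefSeq on GRCm38.p6, which is mm10.

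Shares have Wilson intervals and ratios of shares exact conditional (Clopper-Pearson) intervals, computed with scipy 1.17.1. A window at 0 was set at 3 reads. Ratio and window steps were tested on simulated data. The reads simulated for ratios were drawn independently, so that test does not cover copies made by PCR. Members and lists were chosen with earlier results of these data known. Named were all 6 genes and their tallest fragments; right-hand genes, and Mir133a-1hg, were named after values were seen. Alternatives covered scaling, range, spans, tall fragments and low counts.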

Additional observations from a re-analysis of the deposited data

How the results depend on the processing

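With 1 library per condition, the intervals leave out the spread between cultures, and few fragments with at least 10 reads lay over single genes, as few as 1 at Snrpd1 and 3 at Rock1 in CGI. No paired analysis was possible because 1 library per condition was used and the labels carry no replicate numbers. No alternative turned the direction of a ratio of 2-fold or more, but several took one below 2-fold (Snrpd1 and Rock1 for CGI; Snrpd1, Abhd3, Esco1, Rock1, Greb1l and the sum for cell state). Over the 6 genes, single-gene log2 ratios kept their direction in 62 of 76 values for TFBS, 68 of 76 for CGI, 67 of 76 for TFBS+CGI and 75 of 76 for cell state. Ranges that crossed 0 included -1.19 to 1.87 at Snrpd1 for TFBS, -1.53 to 1.09 at Snrpd1 and -1.23 to 0.42 at Rock1 for TFBS+CGI, and -0.20 to 0.70 at Mib1 for CGI. At Mib1 for TFBS it was 0.08 to 2.45, and at Greb1l for cell state 0.96 to 2.45.

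For the 6 genes together, in the order TFBS, CGI, TFBS+CGI over WT and ESC over AntNPC, the log2 ratio on the deposited RPM scale was 1.93, 0.21, 0.21 and 2.23. As a share of all chromosome 18 reads it was 0.19, -0.41, 0.13 and 1.16. As a share of left-side reads it was 0.21, -0.23 and 0.73 (TFBS, CGI and cell state). With 25 kb left out it was -0.12 and -0.60 (TFBS and CGI). With a range of 500 kb, which drops Greb1l and Rock1, it was 0.12, -0.47, -0.046 and 0.95. With no flank it was -0.19, -0.69 and -0.23 (the inserts). With 10 kb of flank it was -0.33, -0.057 and 0.86 (CGI, TFBS+CGI and cell state). Capped at the 95th percentile it was -0.59 (CGI). With each fragment counted once it was 0.18, -0.32, 0.085 and 0.74. Without the tallest fragment of each gene it was 0.29, -0.46, -0.033 and 1.32. With fragments of at least 10 reads counted once, chosen after seeing the data, it was 0.033, -0.21 and 0.90 (TFBS, TFBS+CGI and cell state). The direction for TFBS and TFBS+CGI thus changed with the setting, and that for CGI with the deposited scale alone; the cause was not tested.

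With windows of 20 kb, 27.6% of those over the genes were higher for TFBS and 48.3% for cell state. On the deposited scale 76.8% were higher and 7.14% lower for TFBS, and 78.2% and 1.82% for cell state. The share over all windows was not computed at these settings, so these values cannot be read as particular to the genes. Other window settings stayed within the counting interval.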
